A study of Mus musculus with 6 samples.

Results

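Intraflagellar transport and BBSome genes were examined in olfactory epithelium of Harlequin mice and their littermate controls. The group was defined by name as 37 genes for the transport of proteins within cilia. Of these, 35 had a probe set with 1 gene name in the platform annotation used here, and all 35 passed a filter on low mean signal over the 6 arrays, among 13219 genes tested in all. Arl6 and Arl13b were not compared on the arrays and entered only the promoter search. By role, the 37 genes fall into 13 genes of IFT-B, 6 of IFT-A, 7 of the BBSome, 6 of the motors, 3 small GTPases, and 2 others, the adapter Tulp3 and the transition zone protein Cep290.

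RNA came from microdissected olfactory epithelium of 3 mutant males (Hq/Y), given as B6CBACAw-J/A-Pdcd8-Hq/J mice, and 3 littermate control males (+/Y), given as B6CBACa, all 6 months old, with 1 Affymetrix array per mouse. Harlequin is an allele of the X-linked gene Aifm1, formerly Pdcd8, that lowers apoptosis-inducing factor, a mitochondrial flavoprotein. The labels write the strain differently for the 2 groups, although they call the controls littermates. The study's stated purpose was to look for mechanisms of neurodegeneration under oxidative stress.

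Cilia are built and maintained by trains of IFT particles that move along the axoneme. IFT-B particles are carried to the tip by kinesin-2, and IFT-A with the dynein-2 motor brings material back. The BBSome is a coat-like complex that rides on these trains and moves membrane proteins, and the gate at the ciliary base, the transition zone, controls what passes. In olfactory sensory neurons the cilia at the dendritic knob hold the odorant receptors and the transduction machinery, and mice that lack BBSome proteins or Cep290 have olfactory defects. Respiratory cells with motile cilia in the nasal lining use the same transport genes.

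The labelled tissue and genotype were checked first. Omp, the marker of mature olfactory sensory neurons, gave a signal of 15891.8 to 18821.7 in Harlequin and 16391.9 to 17347.8 in controls, and the ciliary adenylyl cyclase Adcy3 gave 10379.3 to 12026.9 and 10227.4 to 12491.2. Foxj1, the regulator of motile cilia, was present as well, at 1299.8 to 1767.5 and 1476.2 to 1837.6. Aifm1 gave 335.4, 221.1 and 211.2 in Harlequin against 1239.9, 1255.6 and 1128.2 in controls, a log2 difference of -2.20 (SE 0.18, limma adjusted p = 0.0158). That call was lost without control replicate 1, 2 or 3 (adjusted p of 0.097, 0.0616 and 0.068). RNA integrity, read as the 3'/5' ratio of Gapdh probe sets, spanned 0.729 to 0.79 on the mutant arrays and 0.74 to 0.846 on the control arrays. Precision throughout is limited by there being only 3 mice of each genotype. The labels call the arrays of a genotype biological replicates.

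No gene of the 35 passed the test between the genotypes. At an adjusted p under 0.05 in limma, 0 of 35 passed, against 4 genes or 0.0303% of all genes tested, and the lowest adjusted p among the 35 was 0.978. At an unadjusted p under 0.05 there were 2 of 35 genes, Wdr19 and Ttc21b, where the share over all genes was 4.58%. The 3 Harlequin values lay entirely on one side of the 3 control values for 3 of 35 genes, against 10.4% of all genes tested. These were Wdr19 and Ttc21b, both higher in Harlequin, and Cep290, lower. Of all genes tested, 5.02% were higher without overlap and 5.34% were lower without overlap. Differences are given on the log2(signal + 16) scale as Harlequin minus control. Their median was 0.016 over the 35 genes, with 20 above and 15 below 0, and 5.2e-05 over all genes tested.

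At the brightest probe set of each gene, the arrays bounded the size of any change in most of these genes. The 95% interval of the difference lay within 1.5-fold in either direction for 33 of 35 genes, against 67.2% of all genes tested. The upper bounds of Wdr19 and Ttc21b lay beyond 1.5-fold, and all 35 intervals lay within 2-fold, against 93.2% of all genes tested. The median SE of the difference was 0.109 in the 35 genes and 0.149 over all genes tested. These bounds do not cover the dimmer probe sets over the filter. Some of those had intervals beyond 1.5-fold, in Kifap3, Kif3b, Wdr35, Ift27, Bbs4 and Tulp3, and others did not.

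**Figure D1:**
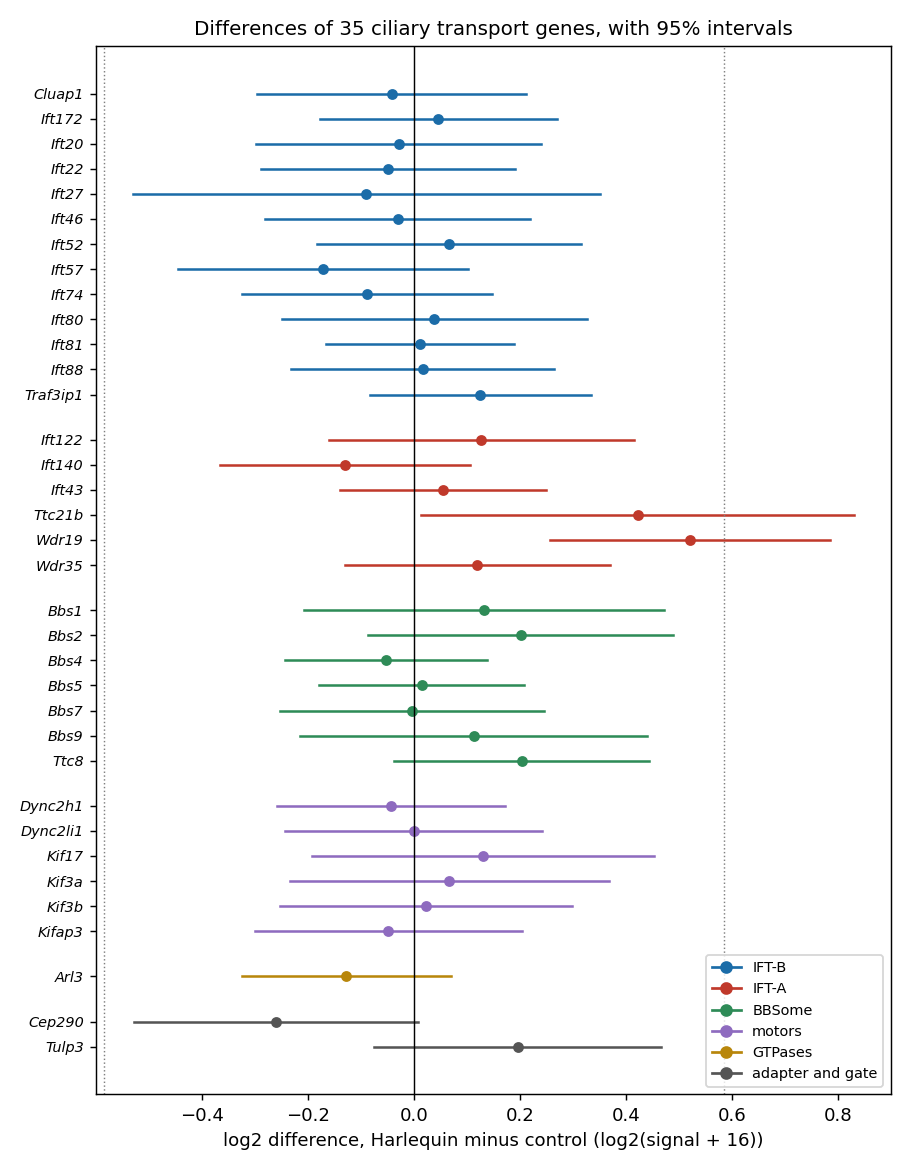
Log2 difference between Harlequin and control (horizontal axis) for each of the 35 genes, grouped and coloured by role, with the 95% interval of the limma fit as a bar and 1.5-fold in either direction as dotted lines. The intervals of Wdr19 and Ttc21b lie wholly above 0 and reach beyond the right dotted line, and the other 33 lie between the dotted lines.

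IFT-A, the complex needed for return transport and for the entry of some membrane proteins, held the 2 largest differences of the 35 genes. Of its 6 genes, 5 were higher and 1 lower in Harlequin, with a median difference of 0.12, and 0 of 6 passed the test over all genes. Wdr19, a core subunit, gave signals of 1384.1, 1330.3 and 1289.6 in Harlequin and 1038, 936.1 and 815 in controls. All 3 mutants lay above all 3 controls. The means were 1335 ± 47.4 and 929.7 ± 112 (SD, n = 3), a log2 difference of 0.52 (SE 0.12, 95% interval 0.26 to 0.78, limma adjusted p = 0.978).

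A second Wdr19 probe set, dimmer than the first, lay in the same direction with a smaller difference of 0.26. Its signals were 664.9, 716.9 and 613.7 in Harlequin against 634.2, 567.4 and 465 in controls, and control replicate 1 lay above Harlequin replicate 3. Across the main setting and the 19 alternatives, the Wdr19 difference ranged from 0.39 to 0.60. Its unadjusted limma p ranged from 0.00142 to 0.0118, while its lowest adjusted p was 0.791. Where every probe set was tested on its own, these ranges read the brightest, so the second entered only through the mean over probe sets.

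Ttc21b, a peripheral IFT-A subunit, gave 308.9, 253 and 279.7 in Harlequin and 163.8, 240.2 and 217.3 in controls. The groups did not overlap, but Harlequin replicate 2 and control replicate 2 lay close together. The log2 difference was 0.42 (SE 0.18, 95% interval 0.013 to 0.83, limma adjusted p = 0.981), and the unadjusted p was under 0.05 in 12 of 20 settings. Leaving out 1 array moved the difference between 0.27 and 0.53. Its other probe set was under the filter on low signal.

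The other 4 IFT-A genes overlapped between the genotypes. Ift140, a core subunit, was the member with the opposite sign, at 1670.6, 1672.4 and 1956.2 in Harlequin and 2065.5, 1817.7 and 1915.8 in controls. In Ift140, 2 of the Harlequin arrays lay below every control, and the difference was -0.13 (95% interval -0.37 to 0.11). Ift122, another core subunit, gave 1512, 1589.7 and 1723.5 against 1730.1, 1289.7 and 1421.3, a difference of 0.13 in which control replicate 1 was the highest of all 6 arrays. The peripheral subunits Wdr35 and Ift43 differed by 0.12 and 0.055. A second Wdr35 probe set differed by 0.29, so each of the 3 further IFT-A probe sets over the filter, of Wdr19, Wdr35 and Ift122, lay above 0. This was not particular to IFT-A. Above 0 were also 7 of 8 further probe sets of the motors, 2 of 3 of the BBSome, 2 of 4 of IFT-B and 1 of 2 of Tulp3.

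IFT-B, the complex that carries tubulin and other cargo to the tip, lay close to 0 as a group. Of 13 genes, 6 were higher and 7 lower, 0 passed, and 0 had groups that did not overlap, against 10.4% of all genes tested. The median difference was -0.029, with a range of -0.17 to 0.13. At the brightest probe sets, all 13 intervals lay within 1.5-fold in either direction.

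Ift57, a peripheral subunit, had the most negative difference of the complex, with 1644, 1381.2 and 1417.7 in Harlequin and 1589.3, 1529.8 and 1899.7 in controls. Control replicate 3 was well above the other 5 arrays, and without 1 array the difference ranged from -0.25 to -0.078. Traf3ip1, which binds microtubules, had the most positive, with 2898, 2534.1 and 2573.1 in Harlequin and 2567.5, 2418.6 and 2341 in controls. Harlequin replicate 1 was the highest array and the groups overlapped. The difference was 0.13 (95% interval -0.083 to 0.33).

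Ift27, a Rab-like GTPase that links IFT-B to removal of the BBSome from cilia, was the least precise of the 35 genes. It gave 775.7, 1141 and 780.5 in Harlequin and 1147.6, 941.1 and 774.6 in controls. The spread within each genotype exceeded the difference of -0.090 (95% interval -0.53 to 0.35), and the probe set used carries the suffix _x_at, which marks possible cross-hybridization. The differences at its 2 further probe sets were -0.17 and 0.0088.

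The tubulin-binding pair Ift74 and Ift81 differed by -0.088 and 0.011. Ift81 gave 4181.4, 3977 and 4403.9 in Harlequin against 4231.5, 4250.5 and 3977.4 in controls, with a 95% interval of -0.17 to 0.19. Ift88, the subunit mutated in the classical cilia-deficient mouse, gave 1314.3, 1060.8 and 1188.2 against 1184.3, 1156.6 and 1168.4, and the 3 controls fell within the Harlequin range. Its difference was 0.016 (95% interval -0.23 to 0.26). The core subunits Ift46 and Ift52 differed by -0.031 and 0.066, Ift172, which acts at the ciliary tip, by 0.046, Ift80 by 0.039, the Rab-like Ift22 by -0.049, Ift20, which also serves at the Golgi, by -0.029, and Cluap1 by -0.042.

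The BBSome genes had a median difference close to that of IFT-A. Of 7 genes, 5 were higher and 2 lower in Harlequin, with a median of 0.11, and 0 passed. None of the 7 had groups that did not overlap, against 10.4% of all genes tested, and in so few genes a count of 0 lies near that share. Ttc8, a subunit also called BBS8, gave 2957.2, 2756.6 and 3146.2 in Harlequin and 2890.5, 2483.6 and 2336.3 in controls. Control replicates 2 and 3 lay below all mutants while control replicate 1 lay among them. The difference was 0.20 (SE 0.10, 95% interval -0.037 to 0.44, limma adjusted p = 0.981).

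The same arrangement held for 2 further BBSome genes. Bbs2, a subunit of the BBSome core, gave 1249.2, 1227.6 and 1347.7 in Harlequin and 1308.3, 992.9 and 1040.6 in controls (difference 0.20, 95% interval -0.086 to 0.49). Bbs1, which binds membrane cargo, gave 1160, 1404.3 and 1363.8 against 1463.6, 1099.2 and 1045.1 (0.13, 95% interval -0.21 to 0.47). In both genes control replicate 1 stood among or above the mutants and the other 2 controls were the lowest arrays. Bbs9 was similar, with its highest value, 963.1, in control replicate 1 and a difference of 0.11.

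The remaining BBSome genes differed little. Bbs5, a lipid-binding subunit, differed by 0.014, with all 6 arrays between 1775.2 and 1899.7. Bbs7 differed by -0.0039 and Bbs4 by -0.053 at its brightest probe set. Of the 3 other Bbs4 probe sets, 2 differed by 0.15 and 0.13 and the dimmest by -0.16, so the sign for Bbs4 depended on the probe set and turned with the mean over its probe sets (0.018).

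Among the motors, 3 of 6 genes were higher and 3 lower, with a median of 0.011 and a range of -0.049 to 0.13. None passed, and 0 had groups that did not overlap, against 10.4% of all genes tested, a share that 0 of 6 lies near. The heterotrimeric kinesin-2 subunits Kif3a, Kif3b and Kifap3 differed by 0.067, 0.023 and -0.049. Kif3a, a motor subunit, gave 1596.6, 1479.7 and 1323.2 in Harlequin and 1635.2, 1358.3 and 1222.7 in controls, with overlapping groups. All 4 of its probe sets differed by between 0.067 and 0.075. Kifap3, the accessory subunit, gave 2647.5, 3273.1 and 3217.6 in Harlequin and 3429.1, 3075.9 and 2927.3 in controls, with the lowest array among the mutants. Its second, dimmer probe set differed by 0.31.

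Kif17, the homodimeric kinesin-2 implicated in moving the olfactory cyclic nucleotide-gated channel, gave 304.5, 284.5 and 322.3 in Harlequin and 304.7, 275.2 and 250.3 in controls. Its difference of 0.13 (95% interval -0.19 to 0.45) came with overlapping groups and turned to -0.098 with the mean over its probe sets, 1 of which lay under the filter. The dynein-2 heavy chain Dync2h1 gave 1498.6, 1406.9 and 1425.9 against 1405.7, 1476 and 1586.8, a difference of -0.043. The light intermediate chain Dync2li1 differed by -0.0011 (95% interval -0.24 to 0.24).

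**Figure D2:**
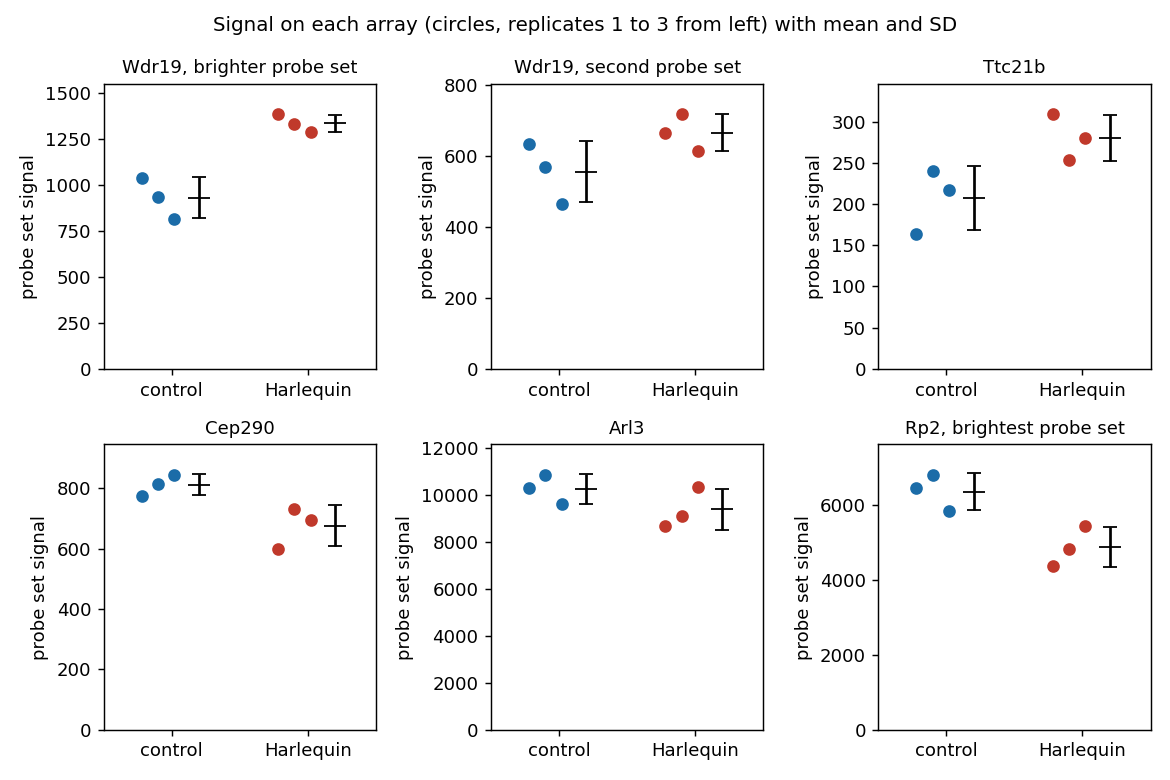
Signal of the probe set on each array (circles, vertical axis from 0 in arbitrary units) for Wdr19, Ttc21b, Cep290, Arl3 and Rp2. The mean and SD of 3 arrays stand beside the circles. The groups do not overlap for the brighter Wdr19 probe set, Ttc21b, Cep290 and Rp2, and they overlap for the second Wdr19 probe set and Arl3.

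The gate protein Cep290, mutated in ciliopathies with loss of smell, was the gene with the most negative difference of the 35. It gave 600.3, 733.2 and 696.6 in Harlequin and 775.8, 814.5 and 844.5 in controls, so every mutant lay below every control. The means were 676.7 ± 68.6 and 811.6 ± 34.4 (SD, n = 3), with a difference of -0.26 (95% interval -0.53 to 0.0074, limma adjusted p = 0.981). Leaving out 1 array moved it between -0.32 and -0.18. Tulp3, which binds IFT-A and brings membrane receptors into cilia, gave 2032.4, 2121 and 2135.9 in Harlequin and 2089.5, 1882.8 and 1553.8 in controls. Control replicate 3 was lowest and control replicate 1 lay among the mutants (difference 0.20, 95% interval -0.076 to 0.47). The dimmer Tulp3 probe sets differed by -0.15 and 0.077.

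Arl3 is the small GTPase that releases lipid-modified cargo inside the cilium. It gave 8705.1, 9126.2 and 10377.1 in Harlequin and 10304.4, 10870.1 and 9613.6 in controls. Harlequin replicate 3 lay among the controls, and the difference was -0.13 (95% interval -0.33 to 0.069). Rp2, which switches Arl3 off by stimulating GTP hydrolysis and is not 1 of the 37 genes, had the smallest p of the list of ciliary membrane trafficking genes. Its brightest probe set gave 4369.2, 4814.4 and 5437.4 in Harlequin against 6437, 6790.7 and 5818 in controls, with no overlap. The difference was -0.38 (SE 0.10, limma adjusted p = 0.981), so Rp2 did not pass over all genes. The other 4 Rp2 probe sets lay in the same direction, at -0.45, -0.35, -0.34 and -0.28, and the groups overlapped in the last 2.

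Each complex was also summarised per array by averaging, over its genes, the log2 distance of that array from the gene's 6-array mean. IFT-A stood at 0.11, 0.048 and 0.12 in Harlequin and at -0.015, -0.10 and -0.16 in controls, without overlap. Without Wdr19 and Ttc21b, left out after their values were seen, the other 4 genes stood at -0.0054, -0.010 and 0.080 against 0.13, -0.090 and -0.10, and the groups overlapped. IFT-B overlapped, at 0.049, -0.020 and -0.052 against 0.048, 0.016 and -0.041. The BBSome overlapped as well, at 0.019, 0.016 and 0.096 against 0.084, -0.092 and -0.12. The motors stood at 0.030, -0.017 and 0.019 against 0.060, -0.063 and -0.028. IFT-A relative to IFT-B was above 0 on all 3 Harlequin arrays, at 0.057, 0.068 and 0.18, and below 0 on all 3 control arrays, at -0.063, -0.12 and -0.12. Without Wdr19 and Ttc21b the same quantity was -0.055, 0.0094 and 0.13 in Harlequin and 0.080, -0.11 and -0.061 in controls, and the groups overlapped. The difference between complexes was not tested.

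Single control arrays carried much of these summaries. Control replicate 3 was the lowest of the 6 arrays for 14 of 35 genes, or 40%, against 18.3% of all genes tested. Control replicate 3 also had the highest Gapdh 3'/5' ratio, 0.846, and the highest median signal over all probe sets, 119.7, where the other 5 arrays had medians of 107.9 to 116.1. Control replicate 1 was the highest for 9 of 35 genes, or 25.7%, against 13.3%, and had the lowest median signal, 107.9. The part of RNA quality or signal level in these counts was not tested. Without control replicate 1 the median difference was 0.22 for IFT-A, 0.25 for the BBSome and 0.025 for IFT-B. It was 0.063 for IFT-A without control replicate 3 and -0.045 for the motors without control replicate 2. The number of these genes that passed was 0 in each of these fits, in which 4, 1 and 2 of 35 had an unadjusted p under 0.05 without control replicate 1, 3 and 2.

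Markers of the cells that bear cilia also varied between arrays. In bulk tissue, fewer cells of a type and less RNA per cell cannot be told apart. Of 12 listed markers of mature olfactory sensory neurons 9 were tested and 0 passed, with a median difference of 0.061. Their level per array was -0.12, 0.11 and 0.074 in Harlequin and 0.11, -0.056 and -0.12 in controls. Control replicate 1 was thus high and control replicates 2 and 3 were low, as for the BBSome genes. The Harlequin arrays did not share this likeness, as the BBSome genes stood there at 0.019, 0.016 and 0.096. Summed over the 9 markers, the signal spanned 72128 to 81159 on mutant arrays and 70642 to 78954 on control arrays.

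Markers of motile cilia varied more. Of 24 listed genes 23 were tested, 7 were higher and 16 lower in Harlequin, and 0 passed, with a median of -0.054. Their level per array was 0.34, -0.16 and -0.33 in Harlequin and -0.0064, -0.067 and 0.22 in controls, and their summed signal was 29008 to 44016 and 33810 to 39672. Harlequin replicate 1 and control replicate 3, the highest arrays for motile cilia, were also the highest for the dynein-2 genes, at 0.11 and 0.097 respectively. The IFT-B genes did not follow both arrays. Harlequin replicate 1 was the highest for 5 of 13, against 18.4% of all genes tested, while control replicate 3 was the highest for 1 and the lowest for 5. The part of neuron number or of motile cilia in any of these differences was not tested.

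**Figure D3:**
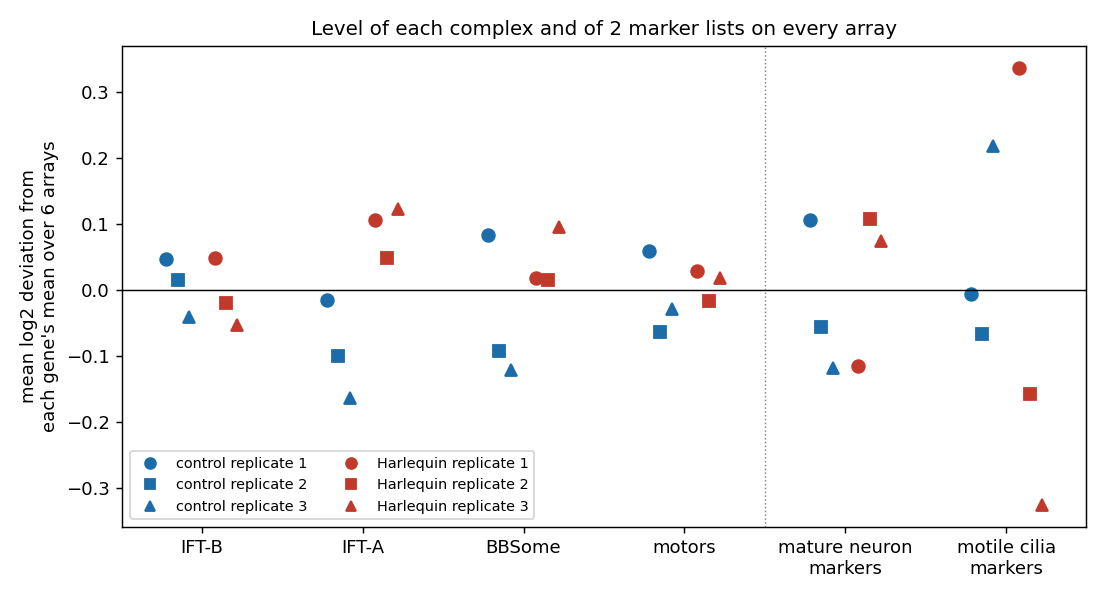
Mean log2 deviation from each gene's own mean over 6 arrays (vertical axis) for the 4 complexes and for 2 marker lists, with 1 symbol per array, blue for control and red for Harlequin. IFT-A separates the genotypes, the other 3 complexes and both marker lists overlap, and control replicate 1 lies highest among the controls for all 4 complexes.

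Genes with several probe sets allowed the difference between the genotypes to be compared between probe sets read on the same arrays. Over the filter, 12 of the 35 genes had more than 1 probe set. All differences of a gene had the same sign in 6 of them (Wdr19, Wdr35, Ift122, Ift80, Kif3a and Kif17) and both signs in the other 6 (Bbs4, Ift27, Ift81, Kif3b, Kifap3 and Tulp3). No gene had probe sets of opposite sign that lay more than 0.5 apart. The widest such range was 0.36, in Kifap3.

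**Figure D4:**
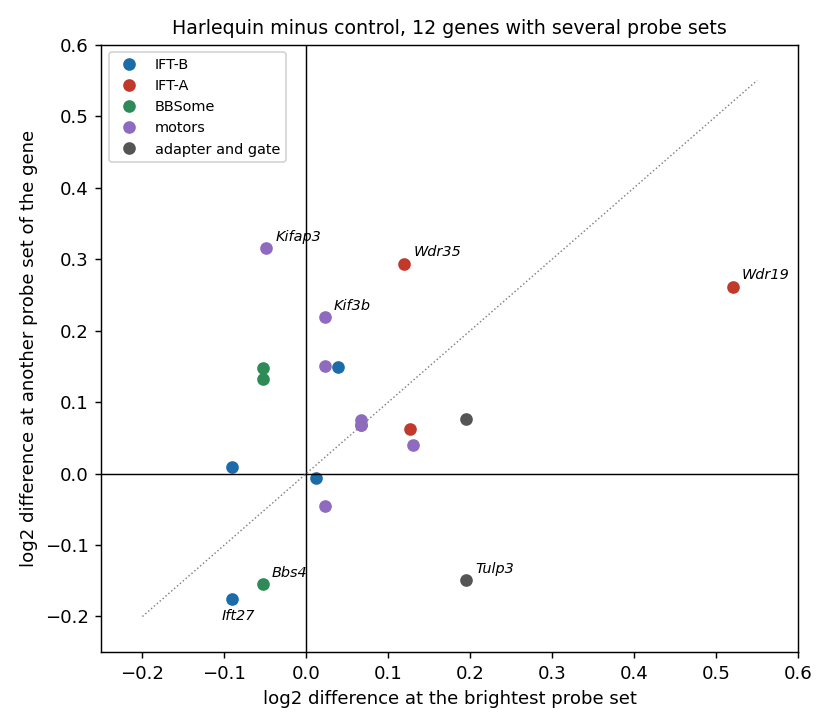
Log2 difference between Harlequin and control at the brightest probe set of a gene (horizontal axis) and at each of its other probe sets over the filter (vertical axis), for 20 probe sets of 12 genes, coloured by role, with equality as a dotted line. Wdr19 lies highest on the horizontal axis, at 0.52, and below the line, at 0.26, and Kifap3 and 1 of the 2 Tulp3 probe sets, at -0.15, lie in quadrants of opposite sign.

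Other ciliary genes were read from the same fit. Of 16 further IFT and BBSome proteins 12 were tested, 6 higher and 6 lower, with a median of 0.020. The smallest p was that of Mkks, a chaperonin-like protein needed to assemble the BBSome, at 1036.4, 1134.2 and 1128.3 in Harlequin and 943.2, 939.1 and 903.6 in controls. Its groups did not overlap (difference 0.24, limma adjusted p = 0.981), and a dimmer Mkks probe set differed by -0.31. Of 17 tested transition zone genes 13 were higher and 4 lower, with a median of 0.063. There Tctn3, a tectonic of the gate, gave 967.3, 1056.1 and 1045.1 against 878.2, 783.4 and 877.7 (0.27, limma adjusted p = 0.981), and its 2 dimmer probe sets differed by 0.33 and -0.024. The mean level of the transition zone genes per array was 0.13, 0.077 and 0.042 in Harlequin and -0.23, 0.032 and -0.043 in controls, without overlap. Of this list Rpgrip1 had the largest difference and a wide error, 1.36 with an SE of 1.1. Without it, left out after its value was seen, the difference of these levels between the genotypes fell from 0.16 to 0.088, with 0.075, 0.046 and 0.011 against -0.012, -0.054 and -0.067.

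The 15 tested genes of basal bodies and ciliogenesis had a median of 0.087, with 11 higher. Ciliary transcription factors had a median of -0.046 over 7 genes, and Rfx3, the regulator best known for IFT genes, differed by 0.11 (95% interval -0.17 to 0.39). The 14 genes of ciliary membrane trafficking, Rp2 among them, had a median of 0.033. In the olfactory transduction cascade, 9 of 11 tested genes were higher and 2 lower, with a median of 0.039. Pde4a, a cyclic AMP phosphodiesterase, differed by 0.34 without overlap (limma adjusted p = 0.981), and Adcy3 by 0.010. The largest difference of the list was that of Cngb1, a subunit of the olfactory cyclic nucleotide-gated channel, at 11.1, 81.8 and 49.9 in Harlequin and 108.4, 114.3 and 110.7 in controls. Its probe set was dim and the mutants lay below the controls and far apart (difference -1.19, SE 0.43, limma adjusted p = 0.981). In these 6 lists 0 genes passed over all genes, and 5 of 76 tested had an unadjusted p under 0.05, against 4.58% of all genes tested.

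Many ciliary genes carry an X-box, the palindromic binding letters of RFX factors, close to their start. RefSeq promoters (GRCm38.p6), 250 bases before and 50 after the start, were found for 33 of the 37 genes. The X-box was spelled as GTNNCC and GGNAAC with any 2 bases between them, where N is any base, and read on both strands. It was in the promoters of 5 of 33 genes (15.2%), against 1.49% of all genes with a promoter and 2.13% of the genes tested on the arrays. The matches were in Bbs1, Bbs4 and Bbs7 of the BBSome and in Ift22 and Ift57 of IFT-B. The shorter GTTGCC, on either strand, was in 14 of 33 (42.4%), against 14.1% and 15.2%. Both spellings were held by 3 genes, Bbs1, Bbs7 and Ift57, where a GTTGCC lay within the long match. Ift57 also held a GTTGCC outside it. Another spelling, GTNNCC and NGNAAC with AT between them, was in 0 of 33, against 0.685% of all genes with a promoter. It fixes the centre but frees the first base of the second part, so it is not a subset of the long spelling. These searches were made after the data had been seen.

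The windows show where these letters lie in 1 BBSome and 2 IFT-B genes with the long spelling, and in an IFT-A, a motor and a further IFT-B gene with the short one, with the matching letters in capitals. They are written in the direction of transcription, upstream of the annotated start, at chr3:36613479-36613528 (minus strand), chr5:136908099-136908148 (plus), chr16:49699189-49699238 (plus), chr17:25015955-25016004 (plus), chr4:138262156-138262205 (plus) and chr1:91494567-91494616 (plus) in that order.
Bbs7: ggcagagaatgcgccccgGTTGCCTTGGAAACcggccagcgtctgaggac
Ift22: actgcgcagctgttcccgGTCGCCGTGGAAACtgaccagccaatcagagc
Ift57: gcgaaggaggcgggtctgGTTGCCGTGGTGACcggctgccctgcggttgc
Ift140: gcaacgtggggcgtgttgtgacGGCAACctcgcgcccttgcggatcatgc
Kif17: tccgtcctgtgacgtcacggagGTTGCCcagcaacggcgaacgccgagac
Traf3ip1: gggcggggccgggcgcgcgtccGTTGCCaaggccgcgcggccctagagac

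In these windows the match ended 107 bases before the start in Bbs7, 19 in Ift22, 73 in Ift57, 103 in Ift140, 67 in Kif17 and 73 in Traf3ip1. Genes with and without the letters differed little between the genotypes. The median difference was 0.016 over the 13 tested genes with GTTGCC and -0.0032 over the 18 without it. It was -0.049 over the 5 with the long spelling and 0.034 over the 26 without.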

How the data were processed

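RNA of 6 mice was hybridised to 1 Affymetrix array each, from 3 µg of total RNA per the labels' protocols. What the authors deposited are intensities of probe sets on a linear scale. Their 2% trimmed mean was 500 on Harlequin replicate 1, the only array on which it was read. The software that made them is not given in the sources used here. After removal of 64 control probe sets, of 45037 others, 34945 name 1 gene in the platform annotation. Each of 18193 genes was represented by its brightest probe set by mean log2(value + 16), and 13219 genes lay above the 40th percentile of that mean (a signal of 61.1). This offset understates differences of dim genes. The genotypes were compared by lmFit and eBayes with an intensity trend (limma 3.58.1 under R 4.3.3), two-sided, adjusted by Benjamini-Hochberg over all genes tested, and an adjusted p under 0.05 was called changed. The procedure was tested on simulated data. Summaries and figures used Python 3.11.15, pandas 2.3.3 and matplotlib 3.10.9.

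The genes, their roles and the marker and pathway lists were chosen with earlier results of these data known, so no p-value was adjusted over them alone. Values on every array are given by rule for genes with an unadjusted p under 0.05, groups that do not overlap, large differences within a complex, or probe sets of opposite sign over 0.5 apart, and for up to 3 genes per other list, not all of which are reported. Ift122, Ift81, Ift88, Dync2h1 and Rpgrip1, outside this rule, were added after their values were seen. Marker lists of immature neurons, sustentacular cells, horizontal basal cells, macrophages and brain were read in the same fit and held 0 genes that passed. Their median differences were 0.038, 0.0098, 0.12, 0.12 and 0.021 in that order. The medians cover opposed differences, from -0.46 to 0.69 in horizontal basal cells and from -0.52 to 0.57 in the 4 tested brain genes. Alternatives were other pseudocounts, filters, normalizations, variance models and probe set rules, a block for the replicate number, and leaving out single arrays.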

Additional observations from a re-analysis of the deposited data

How the results depend on the processing

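No gene of the group passed under any of the 19 alternatives, in which 1 to 4 of the 35 had an unadjusted p under 0.05. The number of genes called over the whole array, 4, was 0 without an intensity trend (643 at an unadjusted p under 0.05). It was 0 with the replicate block (541 unadjusted) and 0 to 3 with 1 array left out. Testing every probe set on its own called 7 probe sets, of which Pdxdc1 had more than 1. Aifm1 stayed at -2.20 without an intensity trend (adjusted p = 0.0887) and with the replicate block (adjusted p = 0.0605), and lay between -2.40 and -2.08 with 1 array left out, with the call lost without each control. The same-numbered arrays were not treated as pairs in the main fit. Their deviations from the group means correlated at -0.24, -0.030 and 0.058, and those of differently numbered arrays at -0.25 to 0.30. Whether any mice were paired cannot be decided from these values, and the labels state no pairs. With 1 array left out, the median ranged from -0.023 to 0.025 for IFT-B, 0.063 to 0.22 for IFT-A, 0.040 to 0.25 for the BBSome and -0.045 to 0.050 for the motors, and the motor median was 0.067 over every probe set.

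The sign turned in at least 1 alternative for 19 of the 35 genes, none of which differed by more than 0.13. It held in all for the other 16, among them Wdr19, Ttc21b, Cep290, Ttc8, Bbs2 and Arl3. Where every probe set was tested on its own, these counts read only the brightest of each gene. Tulp3, also among the 16, had a dimmer probe set of opposite sign, at -0.15. Median scaling gave Bbs7 0.026, Dync2li1 0.029 and Ift20 0.0012, quantile normalization gave Bbs5 -0.00075, and array weights gave Ift20 0.021, Ift81 -0.011 and Ift88 -0.018. The mean over probe sets gave Bbs4 0.018, Kif17 -0.098 and Kifap3 0.13, and leaving out the suffixes _s_at and _x_at gave Bbs4 0.15, Ift27 0.0088 and Ift81 -0.0069. With 1 array left out the range was -0.011 to 0.034 for Bbs5, -0.056 to 0.084 for Bbs7, -0.11 to 0.028 for Cluap1, -0.084 to 0.0028 for Dync2h1, -0.091 to 0.045 for Dync2li1, -0.019 to 0.082 for Ift172, -0.11 to 0.025 for Ift20, -0.094 to 0.040 for Ift22, -0.27 to 0.050 for Ift27, -0.095 to 0.073 for Ift46, -0.023 to 0.13 for Ift52, -0.090 to 0.14 for Ift80, -0.026 to 0.048 for Ift81, -0.058 to 0.094 for Ift88, -0.027 to 0.18 for Kif3a, -0.054 to 0.094 for Kif3b and -0.10 to 0.049 for Kifap3. The cause of these changes was not tested. The 95% intervals were not adjusted over all genes tested, so they do not give the smallest change that the adjusted test would call. The intervals of Wdr19 (0.26 to 0.78) and Ttc21b (0.013 to 0.83) lay wholly above 0. Neither gene passed (limma adjusted p of 0.978 and 0.981). With 3 arrays per genotype, changes within the 95% intervals, and larger ones, could be missed. The simulated data held planted changes of known size, and the share of them that was called is not reported here.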
